A study of Mus musculus with 8 samples.

Results

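Newborn mouse pups carrying a miR-200 transgene were compared with control pups across 2 epidermal cell populations, and the changes that hair germ and interfollicular epidermis had in common were described. The hair germ is the epithelial bud from which a hair follicle grows, and the interfollicular epidermis (IFE) is the stratified epithelium between follicles. All 8 libraries of the series were used, 2 from each of 4 pups, with 1 library for each population. Transgenic pups 4 and 6 carried both pTRE2-200bcl, the miR-200 construct that responds to doxycycline, and K14rtTA, whose transactivator is made under the keratin 14 promoter of basal keratinocytes. Control pup 3 carried K14rtTA and control pup 5 carried pTRE2-200bcl, so the controls differed in genotype and neither had both parts of the system. All pups were of mixed strain background and postnatal day 0.5, and every dam ate doxycycline chow while pregnant. Cells of both populations were sorted from skin as positive for the red reporter K14RFP and high for alpha6 integrin, with P-cadherin high in hair germ and low in IFE.

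Because the libraries of a pup come from 1 animal, the pup was the unit of the test. The counts of a pup's 2 libraries were added, and 2 transgenic sums were compared with 2 control sums in edgeR. A gene was called at a Benjamini-Hochberg adjusted p under 0.05. A gene is described here as shared when it was called and when, in each population separately, both transgenic libraries lay on the same side of both control libraries. Of 14178 genes tested, 929 (6.55%) were called in either direction. Of all tested, 662 (4.67%) were shared, 507 of them higher (3.58%) and 155 lower (1.09%) in transgenic pups. Levels are given as CPM, counts relative to a library size scaled by the trimmed mean of M values.

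The miR-200 family consists of short RNAs that pair with sites in the 3′ untranslated regions (UTRs) of messenger RNAs through their seed, bases 2 to 8, and lower the stability and translation of those messages. The family is abundant in epithelia and is known for repressing the transcription factors Zeb1 and Zeb2, which silence epithelial genes. In skin, follicle buds form through Wnt, Eda, Bmp and Hedgehog signals exchanged between epidermis and dermis. The 5 mature family members are shown because their seeds define the sites counted further on. The sequences are from RefSeq (GRCm38.p6), 5′ to 3′, and capitals mark the seed.
mmu-miR-200b-3p: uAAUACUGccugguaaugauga
mmu-miR-200c-3p: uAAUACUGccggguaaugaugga
mmu-miR-429-3p: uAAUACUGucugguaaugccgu
mmu-miR-200a-3p: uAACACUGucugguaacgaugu
mmu-miR-141-3p: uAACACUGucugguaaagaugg
The first 3 share 1 seed and the last 2 share another, and the seeds differ by a single base.

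The transgene was read through a counted feature named miR200primary. No source used here gives its coordinates. In hair germ its level was 0.176 and 1.40 CPM in control pups 3 and 5 and 526 and 797 CPM in transgenic pups 4 and 6. In IFE it was 3.83 and 2.63 CPM in the controls and 607 and 714 CPM in the transgenics. The feature was high in the 4 libraries labelled transgenic and near 0 in the 4 labelled control, and the transgenic levels of the populations overlapped. By pup the log2 fold change was 8.54 (SE 0.31, adjusted p = 2.43e-06, n = 2 against 2 pups). Each SE was obtained by dividing the size of the log2 fold change by the root of its F statistic.

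Libraries held from 7109871 to 14039583 counts in genes. The ribosomal RNA precursor Rn45s took 30.6% of counts in the IFE library of control pup 3 and 29% in that of transgenic pup 4, against 3.56% to 13% in the other 6. Pup 4 was the only male by counts of Xist and of Y-linked genes, so sex and pup cannot be told apart within the transgenic group. The share of counts from hair germ in the pup sums was 58.3% and 53.4% in controls 3 and 5 and 54.2% and 37.8% in transgenics 4 and 6. With both Rn45s-rich libraries left out, which removes the IFE of pups 3 and 4, 16 genes were called higher and 5 lower. All of them were without overlap in the libraries that remained. In that fit the sums of pups 3 and 4 held hair germ alone, against both populations in pups 5 and 6. The difference between populations thus entered the spread within each genotype, and its part in the fewer calls was not tested. Leaving out transgenic pup 4 left 135 shared rises and 1 shared fall, and leaving out pup 6 left 116 and 2. Leaving out control pup 3 gave 1412 and 1292, and leaving out control pup 5 gave 1301 and 1099. In each of these fits with a lone pup, that pup is assumed to vary as the other genotype does. All 155 shared falls and, apart from 496 of 507 without the Rn45s-rich libraries, all shared rises kept their sign in every one of these fits. Shared genes were chosen for having no overlap, which nearly fixes these signs in advance, so they are no check of the effect.

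The shared falls differed less in size between the populations than the shared rises did, with a median difference of 0.34 against 1.42 on the log2 scale, regardless of sign. The falls were also smaller changes, with a median by pup of -1.08 against 3.08, which leaves less room for a difference. In both sets the IFE change was the larger in most genes, 104 of 155 falls and 330 of 507 rises. The median log2 fold change of the 155 falls was -0.96 in hair germ and -1.16 in IFE. The populations differed by under 0.5 on the log2 scale in 111 of the falls and by under 1 in 143. Over all genes these counts were 7158 and 10168 of 14037. The difference between the populations passed its test in 0 of the 155 (19 of 14176 genes in all, 0.134%). At an unadjusted p under 0.05 there were 11 (1147 of 14176 in all). The 507 rises had a median of 1.91 in hair germ and 3.17 in IFE. Their difference was called in 12, with 166 at an unadjusted p under 0.05, and 92 lay within 0.5. The median over all tested genes was 0.01 by pup, 0.04 in hair germ and -0.01 in IFE. The falls were also the more abundant set, with controls of at least 20 CPM in each population in 146 of 155 against 94 of 507 rises. Without any test, 10.4% of all genes lay higher and 8.39% lower in the transgenic libraries of both populations with no overlap.

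**Figure D1:**
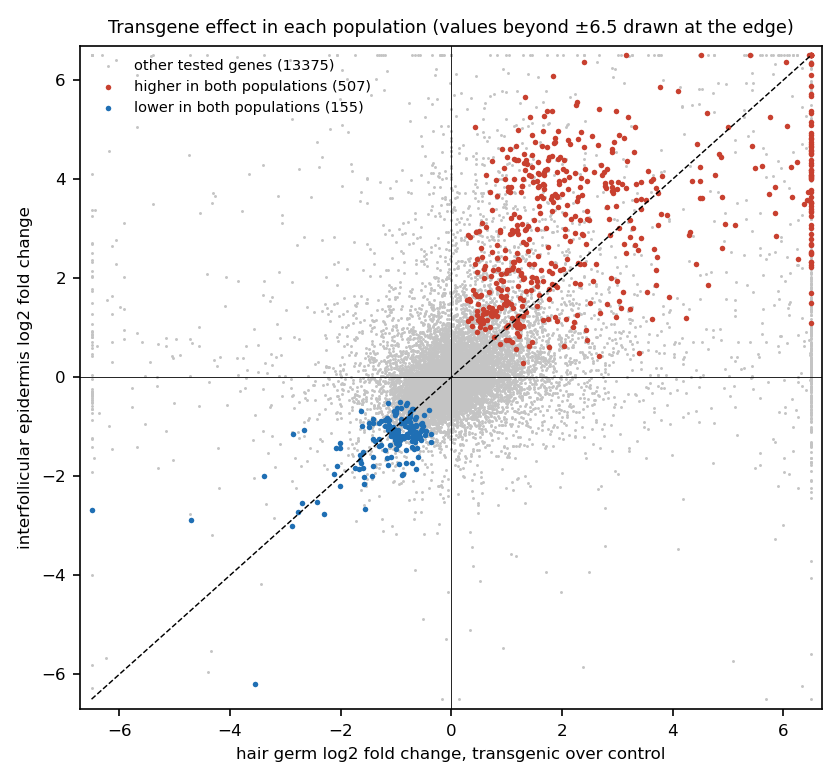
Each point is a gene, with the log2 fold change of transgenic over control libraries in hair germ on the x axis and in IFE on the y axis, and the dashed line marks equal change. The 155 shared falls (blue) lie close to the line, whereas the 507 shared rises (red) spread to both sides of it, with 330 above and 177 below, and points at the right edge include the 69 rises with 0 counts in both hair germ controls.

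Among the largest shared falls were those of the imprinted growth genes H19 and Igf2. H19 makes a long noncoding RNA and Igf2 encodes insulin-like growth factor 2, a fetal growth factor, and the genes are neighbours on chromosome 7 (GRCm38, chr7:142575530-142578146 and chr7:142650768-142666816). In hair germ H19 was at 3507 and 3905 CPM in the controls and at 655 and 350.1 in the transgenics. In IFE the controls had 4410.3 and 13115 CPM and the transgenics 890.2 and 1309. No transgenic library reached a control library, and the IFE control of pup 5 stood far above the other 3 controls. By pup the log2 fold change of H19 was -2.83 (SE 0.39, adjusted p = 0.00223). Igf2 was at 357 and 194 CPM in hair germ controls and at 62.2 and 22.2 in transgenics. In IFE its levels were 792 and 740.3 CPM against 140.1 and 124. The 2 populations thus had different starting levels of Igf2 and nearly equal changes, -2.69 in hair germ and -2.54 in IFE. Its fall of 2.43 by pup (SE 0.19, adjusted p = 0.000139) passed the test under each of 15 alternative settings, the single pups left out included, and it was 1 of 6 named genes that did so.

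Slc1a3, a glutamate and aspartate transporter, fell by 2.44 (log2, adjusted p = 0.000954). C1qtnf1, a secreted C1q and TNF related protein, fell by 2.79 (adjusted p = 0.000803). H60c, a ligand of the NKG2D receptor on lymphocytes, fell by 1.92, and Ccrl1, a scavenging chemokine receptor now named Ackr4, by 2.02. Cxcr7, the scavenging receptor for Cxcl12 now named Ackr3, fell by 1.67 and was the 1 fall among 22 tested chemokines and receptors, of which 8 rose. Of all genes, 1.12% were called lower and 5.43% higher. Oat, the mitochondrial ornithine aminotransferase, fell by 1.75, and Akap2, an anchor of protein kinase A, by 1.79. In each population the transgenic libraries of these genes lay below the control libraries.

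Several Hedgehog pathway genes fell in both populations. Of 18 tested, 6 fell and 0 rose, all 6 shared, against 1.12% of all genes called lower and 5.43% called higher by pup. The list median was -0.63 on the log2 scale, with -0.36 in hair germ and -0.69 in IFE. Of the 18, 3 were above 0, and 9 lay lower without overlap in both populations (8.39% of all genes). Hedgehog ligands bind Patched and its co-receptors and so release Smoothened, which activates the Gli factors, and the pathway drives growth of the follicle bud. Cdon, a co-receptor for Hedgehog ligands, was at 255 and 220.4 CPM in hair germ controls and 88.5 and 68.5 in transgenics, and at 218 and 298 against 93.5 and 88.0 in IFE. Its fall was 1.57 by pup (SE 0.18, adjusted p = 0.000862), with -1.60 in hair germ and -1.51 in IFE. Ptch1, the receptor and a target gene of the pathway, was higher in hair germ than in IFE in controls. Its hair germ levels were 1044 and 904 CPM in controls and 463 and 499.7 in transgenics, and its IFE levels were 484 and 619 against 245 and 238. The transgenic hair germ thus held about the Ptch1 level of control IFE, with a change of -1.23 by pup (SE 0.19, adjusted p = 0.00426). Disp1, needed to release the ligands from the cells that make them, fell by 1.21 (adjusted p = 0.00692). The transcription factors Gli2 and Gli3 fell by 0.78 and 0.82. The list median lay between -0.73 and -0.50 in every alternative setting. Without transgenic pup 4 or pup 6, 0 of the list were called, and without the Rn45s-rich libraries 1 was, Cdon.

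Some Wnt genes also fell, but the list was mixed. Of 43 tested, 6 fell, all shared, and 0 rose, against 1.12% of all genes called lower and 5.43% called higher. The list median was -0.17, with -0.001 in hair germ and -0.36 in IFE, and 15 members were above 0. Without overlap in both populations 10 lay lower and 6 higher, against 8.39% and 10.4% of all genes. Wnt7a, a ligand made by epidermis, fell by 2.14 (SE 0.30, adjusted p = 0.00262), and Ror1, a Wnt5a receptor, by 2.51 (SE 0.35, adjusted p = 0.00248). Lef1, the transcription factor that acts with beta-catenin in follicle placodes, was at 169.7 and 232 CPM in hair germ controls and at 62.9 and 91.5 in transgenics. In IFE it was at 94.0 and 205 CPM against 44.2 and 78.2. Its IFE controls differed from each other by more than its transgenics did, and its fall was 1.43 by pup (SE 0.27, adjusted p = 0.0115). The remaining 3 were Tcf7l1, a repressor of Wnt targets kept on in progenitors, at -1.53, Wnt16 at -1.22 and the co-receptor Lrp4 at -0.83. In the BMP and TGF-beta list of 30 tested genes, 5 rose and 3 fell (26.7% called, against 6.55% of all genes). The falls, all shared, were the receptor Bmpr1b at -1.30 (adjusted p = 0.00504) and the signal carriers Smad2 and Smad5 at -0.89 and -1.03. The shared rises were the ligand Tgfb2 and the receptor Tgfbr1, described further on, and the other called rises, which overlapped in a population, were Ltbp1, Tgfb1 and Id2. Of 19 Notch pathway genes 1 fell and 1 rose (10.5% called, against 6.55% of all genes), with a median of -0.01. The fall, which was shared, was the ligand Dll1 at -1.04 (adjusted p = 0.024), and the rise, which was not, was Rbpj, the DNA-binding partner of Notch, at 0.82.

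Several genes of basal keratinocytes, the proliferating layer of the epidermis, fell in both populations. Of 24 basal genes 4 fell and 1 rose, with a median of -0.61, 21 members below 0 and 14 lower without overlap in both populations. Of all genes, 8.39% lay lower in this way, 1.12% were called lower and 5.43% higher. Krt15, a keratin of basal and follicle progenitor cells, was at 1628 and 1200.1 CPM in hair germ controls and at 716 and 326 in transgenics. In IFE its levels were 1583 and 1749 CPM in controls and 422 and 413 in transgenics. The groups did not overlap, and the fall was 1.67 by pup (SE 0.26, adjusted p = 0.00392). Egfr, a receptor tyrosine kinase for growth factors of the EGF family, was at 249 and 202 CPM against 140.8 and 141.4 in hair germ, and at 279.8 and 319.8 against 114 and 107 in IFE. Its fall of 1.07 (SE 0.18, adjusted p = 0.00629) was -0.68 in hair germ and -1.44 in IFE, a difference that did not pass (adjusted p = 0.481). The transcription factor Sox6, at 137 to 216 CPM in controls and 72.9 to 91.6 in transgenics, fell too (adjusted p = 0.0126). Ly6e, a membrane anchored protein of interferon responses that is also in the basal list, was the rise, by 2.08. Krt14, the keratin whose promoter drives the transactivator, had a value of -0.90 that did not pass (adjusted p = 0.169), nor did Itga6, the gated integrin, at -0.53 (adjusted p = 0.182). Both lay lower in the transgenic libraries of each population, Krt14 at 4277 to 5152 CPM against 7588 to 11675. Cdh3, which encodes P-cadherin, had a value of 0.03 (adjusted p = 0.96). The summed level of the 24 basal genes was 37160 to 49020 CPM in controls and 23270 to 29440 CPM in transgenics. In bulk RNA, fewer cells of a type and less RNA of that type per cell cannot be told apart.

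Among matrix and adhesion genes, a few members fell in each list. Of 23 basement membrane genes 3 fell and 1 rose (17.4% called, against 6.55% of all genes), with a median of -0.52. Without overlap in both populations 14 lay lower (8.39% of all genes). The falls were Fras1 at -1.15 and Frem2 at -0.75, which join in 1 complex under developing epithelia, and the laminin subunit Lamb2 at -0.95. The rise was Nid2, a nidogen, at 4.53, with 0.0879 to 4.18 CPM in controls. Of 30 focal adhesion genes 2 fell and 2 rose (13.3% called), with a median of -0.13. The falls were Itga2, a collagen-binding integrin subunit, at -0.99 and Ptk2, the focal adhesion kinase, at -0.75, and the rises were Tns3, a tensin, at 1.33 and the integrin subunit Itga9 at 2.55, of which Itga9 was not shared. Desmosomes join keratinocytes to each other, and the median of 16 of their genes was -0.34, with 13 below 0. The tetraspan protein Perp fell by 0.81, while the cadherins Dsc1 and Dsc2 rose by 1.30 and 2.20, against the direction of most of the list. Dsc2 had 0 counts in the hair germ of control pup 3 and 8.17 CPM in that of pup 5. Celsr1, the cadherin that aligns follicles across the skin, was the 1 called gene of 25 in planar cell polarity (4%). It was at 1054 and 951 CPM in hair germ controls against 650.3 and 707 in transgenics, and at 1062 and 1228 against 506 and 488 in IFE (log2 fold change -0.90, SE 0.19, adjusted p = 0.0229). In edgeR, 0 of 18 adherens junction genes, 0 of 17 tight junction genes and 0 of 24 apical-basal polarity genes passed by pup, with medians of -0.27, 0.02 and -0.26. At an unadjusted p under 0.05 in edgeR there were 2, 0 and 6, against 2960 of all 14178 genes. DESeq2 on the pup sums called 0 in each, and limma-voom with the pup as block called 1, 0 and 1. In these 3 lists, 1, 0 and 5 genes lay lower without overlap in both populations and 0 lay higher. Of all genes, 8.39% lay lower and 10.4% higher in this way.

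Cell cycle genes leaned lower, with few calls. Of 30 genes of G1/S and DNA replication, 27 were below 0 and 15 lower without overlap in both populations (8.39% of all genes). Of the 30, 3 passed, all lower (10%, against 1.12% of all genes called lower). These were Rrm2, a subunit of ribonucleotide reductase, at -1.25 (adjusted p = 0.03), and the replicative helicase subunits Mcm4 and Mcm7 at -0.91 and -0.89. Of 28 genes of G2/M and mitosis, 26 were below 0, 14 were lower without overlap and 2 passed, both lower (7.14%). Smc2, the core subunit of condensin, was at 152 and 150.2 CPM against 59.5 and 98.8 in hair germ and at 151 and 161 against 49.0 and 72.9 in IFE (log2 fold change -1.18, SE 0.23, adjusted p = 0.0132). Anln, a cytokinesis scaffold, fell by 0.77. The list medians were -0.52 and -0.55, and their values nearest to 0 among the alternative settings were -0.40 and -0.41. Without transgenic pup 4, without pup 6 and without the Rn45s-rich libraries 0 genes of the basal, basement membrane, Wnt and cell cycle lists were called lower.

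**Figure D2:**
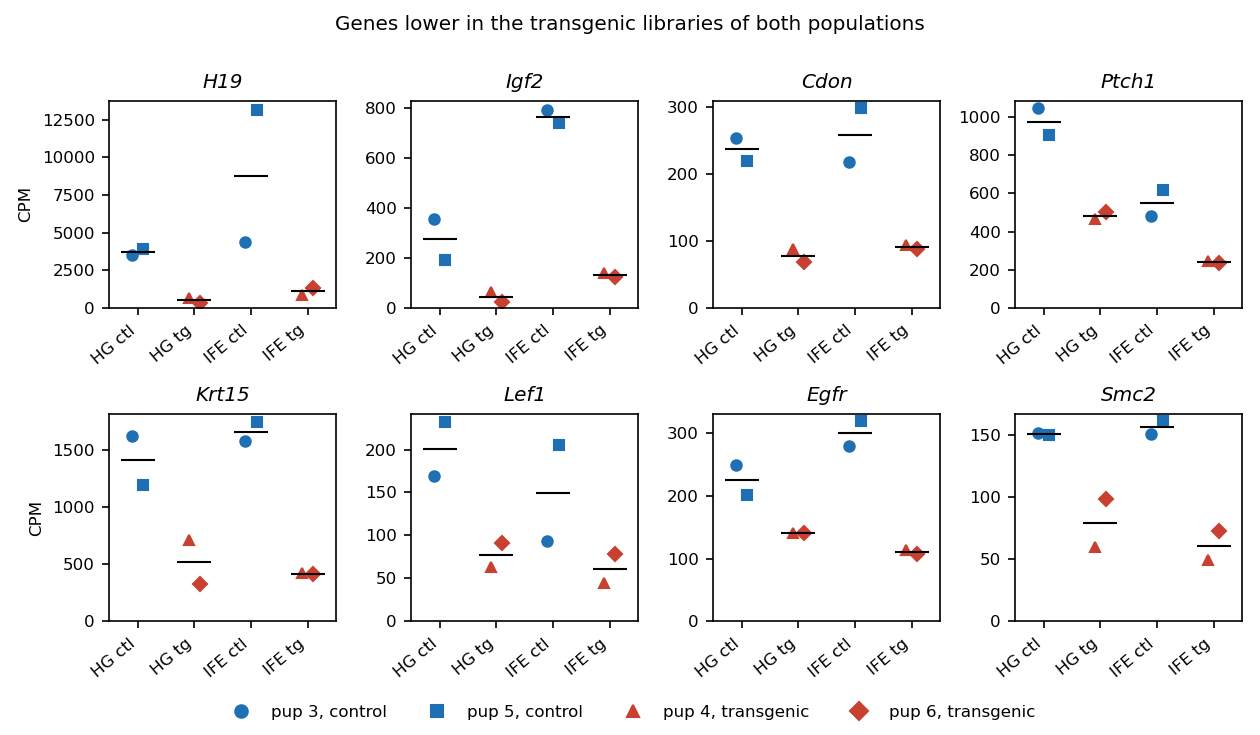
Each panel gives the level of 1 gene in CPM on a linear axis from 0, by population (HG hair germ, IFE interfollicular epidermis) and genotype, with a symbol for each pup and a bar at the mean of 2 pups. In all 8 genes the transgenic libraries (red) lie below the control libraries (blue) of the same population, and H19 in the IFE of control pup 5 reaches 13115 CPM.

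Seed sites were more frequent in the 3′ UTRs of the shared falls than in those of all tested genes. A site is the reverse complement of a seed, CAGTATT for miR-200b, miR-200c and miR-429 and CAGTGTT for miR-200a and miR-141, searched on the sense strand of the longest annotated 3′ UTR of each gene (GENCODE M21, 13299 of 14178 genes). The miR-200b site was present in 30.5% of the shared falls (46 of 151 with a UTR), 12.5% of the shared rises and 15.4% of all tested genes. The miR-200a site was present in 38.4%, 21.4% and 21.0%. Most falls were abundant genes, so the shares were also taken among genes with controls of at least 20 CPM in each population. There the miR-200b site was in 31.9% of the falls, 7.78% of the rises and 19.1% of all. The miR-200a site was in 39.6%, 30.0% and 25.7%. Longer UTRs hold more sites by length alone, and the median UTR length was 1712 bases in the falls, 1389 in the rises and 1213 in all genes. Per kilobase of UTR, the falls had 0.204 miR-200b sites, the rises 0.0858 and all genes 0.111. The same letters in reversed order, TTATGAC, which have the same base composition, were at 0.0474 per kilobase in the falls, 0.0456 in the rises and 0.0474 in all genes. The falls thus had a higher density of the miR-200b site and the same density of its reversed letters. The miR-200a site was at 0.231 per kilobase in the falls, 0.15 in the rises and 0.163 in all genes. Its reversed letters were at 0.0889, 0.075 and 0.0777.

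The number of sites went with the size of the change. Among genes with controls of at least 20 CPM in each population, the median log2 fold change by pup was -0.14 with no miR-200b site (4983 genes), -0.25 with 1 site (947) and -0.39 with 2 or more (232). The order was the same in hair germ, at -0.08, -0.22 and -0.35, and in IFE, at -0.16, -0.28 and -0.38. Of the genes with 2 or more sites 8.19% were called lower and 0% higher, against 2.05% and 2.21% of those with none. For the miR-200a site the medians were -0.15, -0.21 and -0.24. For the reversed letters of the miR-200b site they were -0.16, -0.19 and -0.24, the last over 53 genes. Median UTR length rose along each series, from 1251 to 2408 to 3625.5 bases for the miR-200b site. These are descriptions over genes, which are not independent replicates. The difference of the medians between 2 or more and no miR-200b sites, over all genes with a UTR, was -0.32 and ranged from -0.41 to -0.23 over the alternative settings, with both extremes from leaving out a control pup.

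**Figure D3:**
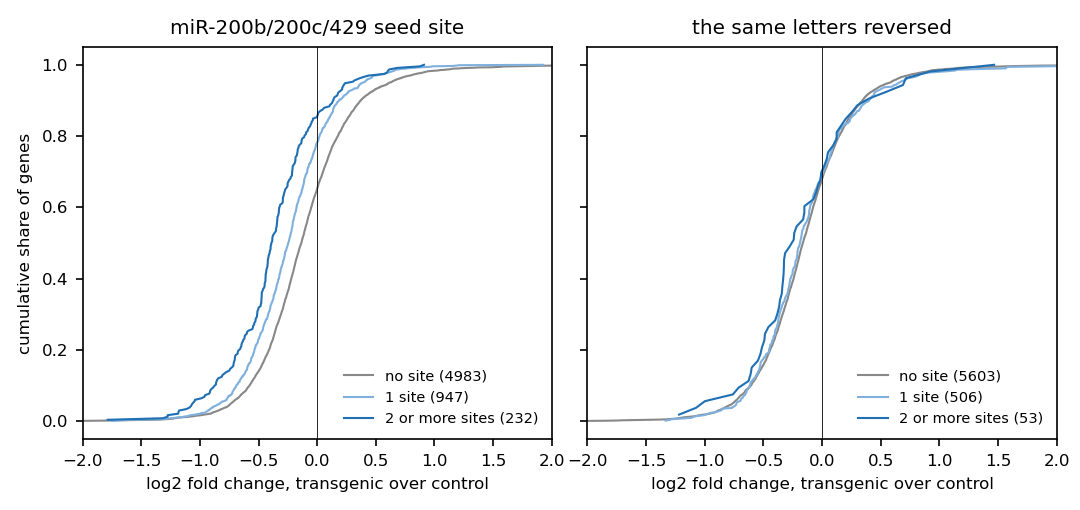
Cumulative share of genes (y axis) by log2 fold change of transgenic over control pups (x axis), for genes with controls of at least 20 CPM in each population, split by the number of sites in the 3′ UTR. The curves for 1 site and for 2 or more miR-200b sites lie to the left of the curve without sites, with medians of -0.25, -0.39 and -0.14, and the curves for the reversed letters lie close together.

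The sites of several shared falls are printed with the 8 bases before and 7 after, since they carry the pattern in genes described above. All are in 3′ UTRs, in the sense direction of the gene, and capitals mark the match to the seed. Coordinates (GRCm38) are those of the match.
Cdon, miR-200b site, chr9:35506002-35506008: acatttgtCAGTATTcccttac
Egfr, miR-200b site, chr11:16912629-16912635: aaaaaaccCAGTATTaagtatt
Egfr, miR-200b site, chr11:16912688-16912694: caaaccatCAGTATTgtgacca
Smc2, miR-200b site, chr4:52487024-52487030: tctaagtaCAGTATTaatgact
Smc2, miR-200b site, chr4:52487330-52487336: ttattacaCAGTATTacacttg
Rrm2, miR-200b site, chr12:24713737-24713743: ttaatgctCAGTATTatcttga
Oat, miR-200b site, chr7:132557655-132557661: tttattttCAGTATTtctttga
Ror1, miR-200a site, chr4:100444562-100444568: tataatgaCAGTGTTcaggtag
In Smc2 and Rrm2, and at the first site of Egfr, the match is followed by an A, which is known to strengthen pairing sites. Of the other falls above, Igf2 and Ptch1 each held 1 miR-200a site and no miR-200b site, and Krt15 and Lef1 held 0 of either. Rises held sites too, with 1 miR-200b site in Trps1 and 2 miR-200a sites in Tgfb2. Of 45 tested textbook targets of the family 4 rose and 1 fell, with a median of -0.14 and 28 below 0. Of the 45, 11.1% were called, against 6.55% of all tested genes. The fall, which was shared, was Sh3pxd2a, a podosome scaffold, at -0.86 (SE 0.20, adjusted p = 0.033), with 1 site of each kind. The rises were Zeb2, which was shared, and Rassf2, Flt1 and Fhod1, which were not. Drosha, the nuclease that cuts primary microRNA transcripts, fell by 0.75 (adjusted p = 0.0499) and was the 1 call among 12 genes of the microRNA machinery (8.33%).

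Zeb2, the best known target together with Zeb1, was higher rather than lower in the transgenic libraries. It was at 11.6 and 6.98 CPM in hair germ controls against 25.0 and 25.7 in transgenics, and at 14.1 and 3.14 against 295 and 169 in IFE. The groups did not overlap in either population, and the rise was 3.79 by pup (SE 0.36, adjusted p = 0.000317), with 1.46 in hair germ and 4.90 in IFE. Zeb1 had a value of 2.65 that did not pass (adjusted p = 0.0622) at control levels of 0 to 2.89 CPM. The Zeb2 UTR held 5 miR-200b and 4 miR-200a sites, and 1 of each is shown to set beside the sites of the falls.
Zeb2, miR-200b site, chr2:44988109-44988115: cagtgcatCAGTATTacgattc
Zeb2, miR-200a site, chr2:44988358-44988364: attttgtaCAGTGTTaaggcct
Zeb2 is also made by macrophages and melanocytes, whose marker genes were higher in the same libraries, as given below, and their part in its level was not tested.

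Several developmental regulators of hair and epidermis rose in both populations. Trps1, a GATA-type transcription factor of follicle epithelium and dermal papilla, was at 7.64 and 7.38 CPM in hair germ controls and at 61.5 and 80.5 in transgenics. In IFE it was at 14.6 and 9.0 CPM against 111 and 97.1. The change was nearly the same in both, 3.24 and 3.18, with 3.22 by pup (SE 0.25, adjusted p = 0.000139), and it passed the test in every alternative setting. Tgfb2, a ligand that promotes follicle bud growth, was at 24.8 and 11.8 CPM against 220 and 200 in hair germ and at 30.8 and 7.05 against 49.2 and 67.7 in IFE. Its rise of 2.88 by pup (SE 0.40, adjusted p = 0.00241) was 3.54 in hair germ and 1.72 in IFE, and that difference did not pass (adjusted p = 0.533). Nfatc1, a transcription factor of follicle stem cells, was at 87.7 and 92.5 CPM against 178 and 179 in hair germ and at 63.9 and 71.6 against 228 and 194 in IFE (log2 fold change 1.21, SE 0.18, adjusted p = 0.00348). Hoxc13, a regulator of hair keratins, was at 0 and 0.731 CPM in hair germ controls and at 6.87 and 12.8 in transgenics. In IFE it had 0 counts in both controls and rose at least 8.49-fold, taking 3 counts over the control group as the floor. Lhx2, a follicle progenitor factor, rose by 1.26. Of the 30 tested hair germ and placode genes 5 rose and 3 fell, all shared, with Lef1 and Ptch1 among the falls. Of the 30, 26.7% were called, against 6.55% of all genes. Among 32 basal transcription factors 5 rose and 5 fell (31.2% called), the latter with Bcl11b at -0.86 and the former with Runx3 at 4.01.

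Few genes of the upper epidermis and its barrier were called. Of 25 suprabasal genes 2 rose and 0 fell (8%), and of 20 barrier lipid genes 2 rose and 0 fell (10%), shares near the 5.43% of all genes called higher. Abca12 is in both lists, and the others were Dsc1 and Elovl4. Abca12, which loads lipid into lamellar granules, was at 28.4 to 56.9 CPM in controls and 83.0 to 114 in transgenics (log2 fold change 1.46, SE 0.23, adjusted p = 0.00424). Elovl4, which makes very long fatty acids for barrier ceramides, rose by 1.64 (adjusted p = 0.0242). Krt79, a keratin of the follicle duct and sebaceous opening, rose by 1.58, with 33.9 CPM in the IFE control of pup 5 against 163 in that of pup 3. Egr2, an early response transcription factor, rose by 1.12 (SE 0.20, adjusted p = 0.00969), from 36.1 to 50.7 CPM in controls to 75.5 to 104 in transgenics.

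Further rises began from levels of at least 20 CPM in the controls of both populations. Mtss1, a membrane-bending actin regulator and a target of Hedgehog signalling, rose by 1.65 (SE 0.20, adjusted p = 0.00105), in the opposite direction to the Hedgehog genes above. Abca1, the cholesterol exporter, rose by 1.99, and Camk1d, a calcium-dependent kinase, by 1.27. Tep1, a vault and telomerase protein, rose by 1.51 and Vps13c, a lipid transfer protein, by 1.30. The noncoding RNAs Rmrp and Rpph1, the RNA parts of the ribonucleases MRP and P, rose by 1.60 and 1.61. Rmrp was at 1181 CPM in the hair germ of pup 4 and at 451 in that of pup 6, so the transgenic pups differed by more than its controls, at 156 to 288. Without the Rn45s-rich libraries, Mtss1, Tgfb2 and Trps1 were among the 16 genes called higher.

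Vim, the intermediate filament vimentin of mesenchymal and blood cells, showed the same direction in both populations and a larger size in IFE. It was at 146 and 132 CPM in hair germ controls and at 729 and 638 in transgenics. In IFE it was at 231 and 196 CPM against 6306 and 5601. The rise was 4.28 by pup (SE 0.27, adjusted p = 7.41e-05), with 2.30 in hair germ and 4.80 in IFE, and that difference passed (adjusted p = 0.0284). Of 14 genes tied to epithelial-mesenchymal transition, 6 rose, 5 of them shared, and Snai2 fell by 0.78. Of the 14, 50% were called, against 6.55% of all genes. The receptor Tgfbr1 rose by 1.81, from 67.6 and 69.0 to 91.6 and 91.4 CPM in hair germ and from 96.3 and 99.0 to 495 and 465 CPM in IFE.

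**Figure D4:**
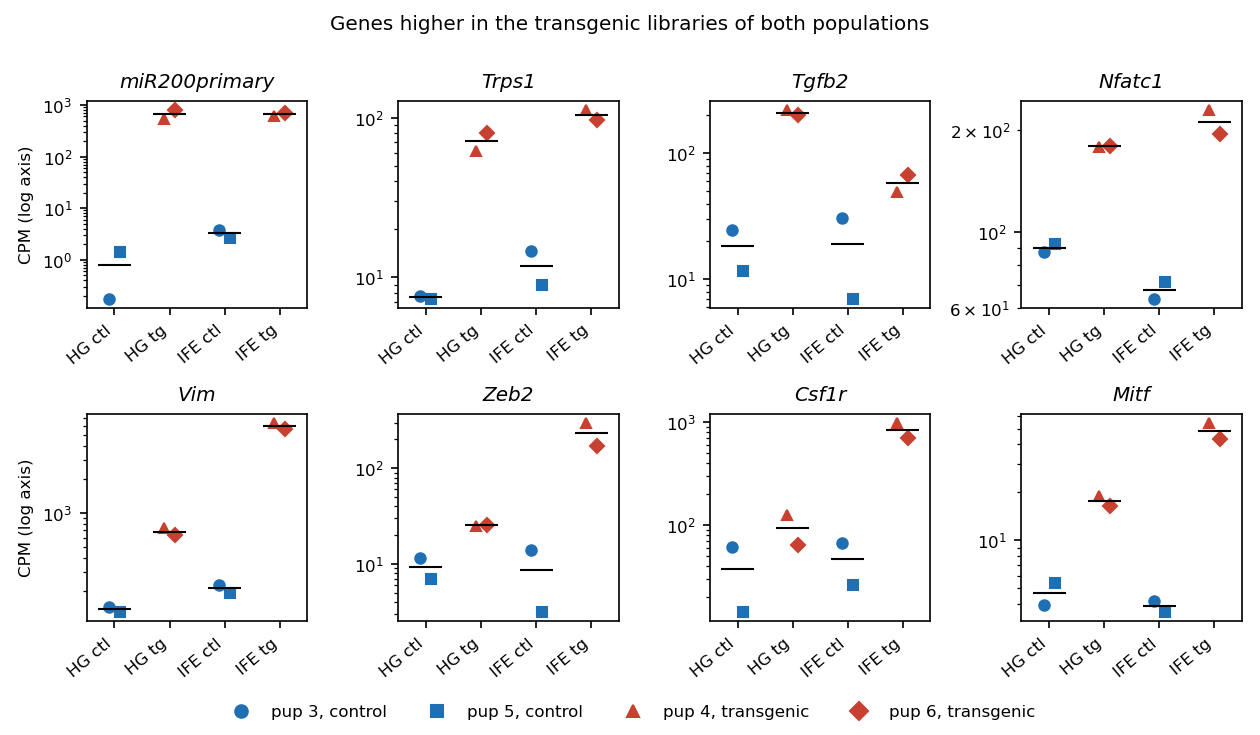
Levels in CPM on log axes by population (HG hair germ, IFE interfollicular epidermis) and genotype, with a symbol for each pup and a bar at the mean of 2 pups. Trps1 changed by nearly the same factor in both populations, Tgfb2 had its highest levels in transgenic hair germ, and Vim, Zeb2 and Csf1r had theirs in transgenic IFE.

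Macrophage and monocyte genes rose nearly throughout the list. Of 27 markers 26 rose and 0 fell, 21 of them shared, against 5.43% of all genes called higher and 3.58% shared rises. The markers had a median of 1.88 in hair germ and 4.21 in IFE. Their summed level was 99.5 to 400.3 CPM in controls, 627 and 406 CPM in transgenic hair germ of pups 4 and 6, and 6176 and 4728 CPM in transgenic IFE. Spp1, the secreted protein osteopontin, had 0 counts in both hair germ controls and 18.8 and 24.6 CPM in transgenics, at least 187-fold higher. In IFE it was at 0.174 and 2.38 CPM against 234 and 299. Csf1r, the receptor through which macrophages are maintained, was at 61.1 and 14.5 CPM against 124 and 64.3 in hair germ and at 67.7 and 26.3 against 969 and 707 in IFE. The hair germ ranges of Csf1r nearly touch, while the IFE ranges are far apart. Lyz2, the macrophage lysozyme, rose by 5.71, Emr1, which encodes F4/80, by 3.94, and Ptprc, the leukocyte surface protein CD45, by 3.60. Sfpi1, the transcription factor PU.1, had 0 counts in hair germ controls and was at least 71.0-fold higher in transgenics. Lyve1, a marker of resident macrophages, was at 0 in all 8 libraries. Without transgenic pup 4 the list had 17 calls and without pup 6 it had 16, and without the Rn45s-rich libraries 2 markers, Spp1 and Laptm5, were called.

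Genes of phagocyte function rose alongside. Of all tested genes, 5.43% were called higher and 3.58% were shared rises. Of 29 complement and phagocytosis genes 24 rose and 15 were shared, among them Cd36, a scavenger receptor, Fcgr2b, an inhibitory antibody receptor, and the complement subunit C1qc at 3.90. Of 33 lysosome genes 17 rose and 12 were shared, with the protease Ctss at 3.42, Laptm5 at 4.22 and the glucuronidase Gusb at 2.63. Of 20 interferon response genes 10 rose and 7 were shared, including Oasl2 at 3.12 and Irf8 at 4.55. Of 16 genes of antigen presentation 7 rose and 4 were shared, with Cd74, the invariant chain, at 2.70. In the order given, the medians of these lists were 1.31, 0.46, 0.58 and 0.57 in hair germ. In IFE they were 4.08, 1.23, 3.55 and 2.45, so values by pup do not stand for hair germ alone. Other shared rises of this kind were F13a1, the coagulation factor XIII subunit, at 5.50, the TNF receptor Tnfrsf1b at 5.23, Gatm, a creatine synthesis enzyme, at 5.32 and the pattern receptor Tlr13 at 4.96. Without transgenic pup 4 the complement, lysosome, interferon and antigen presentation lists had 12, 5, 1 and 1 calls, and without pup 6 they had 8, 4, 1 and 0. Without the Rn45s-rich libraries they had 0, 1, 0 and 0. The part of macrophage RNA in these rises was not tested, and the sort had selected cells positive for the keratin 14 reporter.

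Melanocyte markers rose in both populations. Of 11 tested 6 rose, all shared, and 0 fell, against 5.43% of all genes called higher and 3.58% shared rises. The list sum was 21.5 to 36.6 CPM in controls and 149 to 207 CPM in transgenics. Without transgenic pup 4 or pup 6 the list had 1 call, and without the Rn45s-rich libraries 0. Mitf, the melanocyte master regulator, was at 3.57 to 5.38 CPM in controls, 19.01 and 16.5 in transgenic hair germ and 54.1 and 43.2 in transgenic IFE. Kit, the receptor on melanoblasts and mast cells, was at 0 to 2.19 CPM in controls and 7.28 to 51.5 in transgenics. Sox10, a neural crest transcription factor, had 0 counts in all 4 controls and was at least 39.1-fold higher in hair germ and 16.7-fold higher in IFE. Pmel and Dct, of pigment synthesis, rose by 2.90 and 2.74, and Gpnmb, also made by macrophages, by 4.34. In transgenic IFE, Gpnmb and Mitf averaged 55.0 and 48.7 CPM of a list sum averaging 159. In transgenic hair germ they averaged 17.4 and 17.7 of 182. Kit and Sox10 went the other way, at 12.0 and 2.70 CPM in transgenic IFE and 36.2 and 4.72 in transgenic hair germ. The part of macrophage RNA in the list sum was not tested. The mast cell genes Mcpt4, Tpsb2, Cpa3 and Ms4a2 were at 0 in all 8 libraries.

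Lists of other cell types had fewer calls. Of 11 Langerhans and dendritic cell markers 4 rose, 2 of them shared, with Itgax at 3.49. Of all genes, 5.43% were called higher and 1.12% lower, and 3.58% were shared rises. Of 6 endothelial markers 0 were called by edgeR and 2 by DESeq2, with 4 at an unadjusted p under 0.05. Of all 14178 genes, 2960 had such an unadjusted p in edgeR. The endothelial median was 2.97, and the summed level was 0.703 to 7.38 CPM in controls and 13.8 to 24.0 in transgenics. Of 4 tested T cell markers 0 were called by edgeR, DESeq2 or limma and 0 had an unadjusted p under 0.05, with a summed level of 20.2 to 46.9 CPM in controls and 24.4 to 39.6 in transgenics. Of 7 fibroblast markers Dcn, a collagen-binding proteoglycan, fell by 1.81 and Postn, periostin, by 0.89. The list median was -0.13, with 5 members below 0 and 2 above, up to 3.23. The summed level was 1082 to 1360 CPM in controls and 508 to 780 CPM in transgenics. Postn made most of that sum, at 642.5 to 1156 CPM in controls and 408 to 585 CPM in transgenics. Krt18, a simple-epithelium keratin of Merkel cells, rose by 3.53 and was the 1 call of 9 Merkel cell markers. Of 24 ribosomal protein genes 0 were called by edgeR, DESeq2 or limma on pup means and 0 had an unadjusted p under 0.05, with a median of -0.05.

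**Figure D5:**
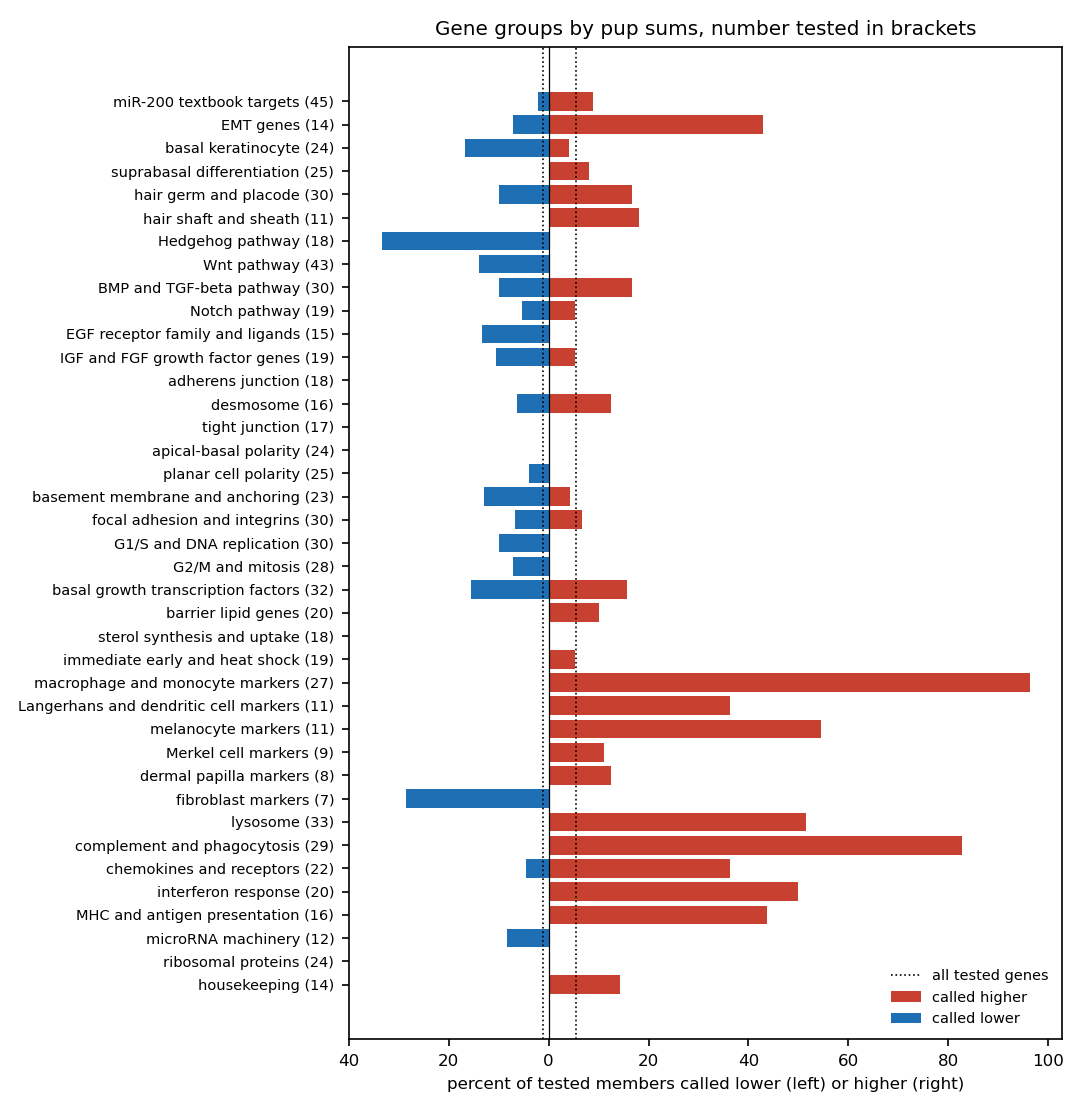
For each gene group with at least 7 tested members (number in brackets), bars give the percent of tested members called higher (red, right) or lower (blue, left) by pup, and dotted lines give the same over all tested genes, 5.43% and 1.12%. Macrophage markers and phagocytosis genes have the longest bars to the right, and the Hedgehog pathway has the longest to the left.

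A promoter motif of PU.1, GAGGAAGT searched on both strands in the 250 bases before and 50 after the start of each gene (RefSeq, GRCm38.p6), was present in 9.84% of the shared rises (37 of 376 with a promoter), 1.75% of the shared falls and 3.70% of all 11064 promoters. The Gli motif GACCACCCA was present in 0.532%, 0% and 0.271%. Not every named rise was searched for the motif, so the named matches are no full list. Among the named rises searched, Spp1 and C1qc held the PU.1 letters before the start. The 250 bases before their starts are printed with the motif, or its reverse complement, in capitals.
Spp1, chr5:104434861-104435110, plus strand: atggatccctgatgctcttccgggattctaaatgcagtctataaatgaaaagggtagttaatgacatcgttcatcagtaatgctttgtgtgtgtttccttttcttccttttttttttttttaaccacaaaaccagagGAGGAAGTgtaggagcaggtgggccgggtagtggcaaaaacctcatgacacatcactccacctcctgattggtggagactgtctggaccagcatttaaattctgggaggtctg
C1qc, chr4:136892915-136893164, minus strand: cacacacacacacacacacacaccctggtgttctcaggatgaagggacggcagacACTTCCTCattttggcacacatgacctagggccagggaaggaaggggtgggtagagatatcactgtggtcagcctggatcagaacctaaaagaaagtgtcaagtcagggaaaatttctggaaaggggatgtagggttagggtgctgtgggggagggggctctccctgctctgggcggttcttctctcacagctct
A match is a description of the letters and not a bound site.

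Not every call by pup was shared. Of 770 genes called higher (5.43%), 263 overlapped in at least 1 population, 244 of them in hair germ and 19 in IFE, and 52 of the 263 had opposite signs. Of 159 called lower, 4 overlapped, all in IFE. Tested singly, hair germ gave 135 calls (0.952%) and IFE 899 (6.34%). Of the 155 shared falls, 23 passed in hair germ and 100 in IFE, with 18 in both, and 50 passed in neither alone. Of the 507 shared rises, 90 passed in hair germ and 388 in IFE, with 67 in both.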

How the data were processed

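The authors deposited raw counts, 1 value for each symbol in each library. The submitters' processing notes name TopHat, HTSeq and DESeq2, and mm10 (GRCm38) as the build. No source used here states versions or whether counting used strand. The 23433 symbols were kept and 5 summary lines per library left out, and 23.4% to 42.4% of recorded reads had been assigned to genes. Counts of each pup were summed over its 2 libraries, scaled by TMM, filtered with filterByExpr and tested with edgeR 4.0.16 (glmQLFit with legacy set to FALSE, glmQLFTest, two-sided) in R 4.3.3, with 2 residual and 7.606 prior degrees of freedom and a common biological coefficient of variation of 0.3006. An exact permutation of 2 against 2 pups cannot go below p = 0.333, so p-values rest on the spread shared across genes. Effects within a population, and their difference, come from an edgeR fit of 4 group means over the 8 libraries. Where a group had 0 counts, 3 counts over that group served as the floor of a fold, which covers counting error only.

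Pup numbers recur in both populations because each is 1 animal. Deviations of a pup's libraries from their group means correlated at 0.117 in controls and 0.0868 in transgenics over all genes, and at 0.394 and 0.191 over 7365 abundant genes (log2 CPM averaging 4 or more). Genotype arms share no pup.

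Members and the 48 gene lists were chosen with earlier results of these data known. Named genes are the 10 largest shared rises and falls by the smaller of their 2 population effects (mean log2 CPM of at least 2), the 10 largest such rises with controls of at least 20 CPM, up to 3 shared genes of smallest p per list, and miR200primary, Zeb1, Zeb2, Cdh3, Itga6 and Krt14. Other list members were named after their values were seen. Not every called list member is reported here by name. On simulated counts of 14011 genes the pup test found 3% of genes changed by 1 on the log2 scale and 75% of those changed by 2, with 1 false call of 79. Alternatives used limma 3.58.1 and DESeq2 1.42.0.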

Additional observations from a re-analysis of the deposited data

Results flagged for a closer look

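Among the named genes, 3 shared rises differed in size between the populations by the test of the difference itself, and all 3 were larger in IFE. The hair germ change minus the IFE change was -2.69 on the log2 scale for Ptprc (adjusted p = 0.0284), -2.51 for Vim (adjusted p = 0.0284) and -1.87 for Tgfbr1 (adjusted p = 0.0436). Without transgenic pup 4 or without pup 6, 0 genes had a called difference, with 530 and 455 at an unadjusted p under 0.05.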

How the results depend on the processing

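The number of calls depended on the setting. The sign of a shared gene hardly could, because the rule of no overlap nearly fixes it in advance. Kept signs are therefore no independent check. All 155 shared falls kept their sign in every alternative, as did the 507 shared rises except, without the Rn45s-rich libraries, 11 that turned or were not tested there. Of 97 named genes, 96 kept their sign; Cdh3, which was not called, was at -0.12 to 0.17 with single pups left out, below 0 without control pup 3 and, at -0.08, without transgenic pup 6. The 6 called in every setting were Igf2, Laptm5, Spp1, Trps1, Vim and miR200primary. Against 770 higher and 159 lower calls, of which 507 and 155 were shared, library size alone gave 105 lower and 89 shared falls, DESeq2 on pup sums 374 and 339, 8 libraries as units 381 and 370, and limma-voom with the pup as replicate block 323 and 318. With limma on pup means there were 302 higher and 67 lower calls, 277 and 67 shared. Without the Rn45s-rich libraries, where the sums of pups 3 and 4 hold hair germ alone, there were 16 and 5, all shared. Leaving out single pups gave 119 to 1864 higher and 1 to 1342 lower calls, with 116 to 1412 shared rises and 1 to 1292 shared falls. Hair germ calls (135) were 316 by library size alone, 648 by DESeq2, 26 with the replicate block and 1 to 474 without single pups, IFE calls (899) 207 to 1200, and called differences (19) 97, 177 and, with no filter, 45, or 0 to 91. The consensus correlation within pups was 0.0517 with population and genotype as terms and 0.184 with 4 group means. Of all calls 82.9% were higher, against 90.7% by library size alone, where the median of all genes was 0.11, 69.2% with 8 libraries, 69.5% with the block, 58.1% without control pup 3, 57.1% without pup 5, 99.4% without transgenic pup 4 and 98.3% without pup 6. The cause of these shifts was not tested. Seed-site differences between medians stayed below 0 throughout, at -0.41 to -0.23 for the miR-200b site and -0.23 to -0.12 for the miR-200a site. Alternatives on seed sites were chosen after seeing the data.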
